A study of Rattus norvegicus with 18 samples.

Results

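The miR-379 to miR-410 cluster is a long run of miRNA genes in the imprinted Dlk1-Dio3 domain, and its mature miRNAs were followed here in rat gastrocnemius, a mixed-fibre muscle of the calf, during ageing and caloric restriction (CR). Members were chosen by name, with earlier results of these data known. They were the arms of the 34 miRNAs from miR-379 to miR-410 that had at least 10 counts over the 18 libraries. Of the 909 entries of the count table, 65 rows carried these names and 55 passed the minimum. The 10 rows left out held 0 to 9 counts each. At the edge of this minimum, miR-494-5p was kept with 10 counts and miR-300-5p was left out with 9. Entries of the miR-35xx series that lie on the opposite strand of a member were not counted as members. Young AL rats were male Brown Norway rats of 6 months with free access to food (ad libitum, AL). Old AL rats were 28 months old and also fed ad libitum, and old CR rats were 28 months old and had received 55% of the ad libitum intake since 2 months of age. Each group held 6 libraries, all rats shared the strain and sex, and no gene was altered. Because CR started at 2 months, age and the length of restriction cannot be told apart within old CR, and a young CR group was not analysed here. The labels do not go beyond 1 library for each rat, so the spread between libraries includes animal and technical variation.

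A miRNA hairpin is cut into a 5p and a 3p arm, of which usually the arm whose 5′ end is less stably paired in the duplex is loaded into the Argonaute protein. Bases 2 to 8 of the mature miRNA, the seed, pair with target mRNAs and lead to their decay or reduced translation. The Dlk1-Dio3 domain is imprinted: its non-coding RNAs, including the host transcripts of this cluster, are made from the maternally inherited chromosome, while Dlk1, Rtl1 and Dio3 are made from the paternal copy. The cluster is highly expressed in embryo, placenta and adult brain, and in muscle its transcription is known to respond to the myogenic factor MEF2.

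In the RefSeq annotation of the rat genome GRCr8, 33 hairpins with a member lay within 36.4 kb (chr6:134543445-134579838). Of these, 31 were on the plus strand and 2, Mir299b and the miR-409b hairpin, on the minus strand. In 22 hairpins both arms were members. Along the cluster the first section ran through miR-379 (5p and 3p), miR-411 (5p and 3p), miR-299b (5p and 3p), miR-299a (5p and 3p), miR-380 (5p and 3p), miR-323 (5p and 3p), miR-758-3p, miR-329 (5p and 3p), miR-494 (5p and 3p), miR-1193-3p and miR-543-3p. The middle section ran through miR-495, miR-667 (5p and 3p), miR-376c (5p and 3p), miR-376b (5p and 3p), miR-376a-5p, miR-300-3p, miR-381-3p, miR-487b (5p and 3p), miR-539 (5p and 3p), miR-382 (5p and 3p) and miR-134 (5p and 3p). The last section ran through miR-668, miR-485 (5p and 3p), miR-154 (5p and 3p), miR-496-3p, miR-377 (5p and 3p), miR-541 (5p and 3p), miR-409b, miR-409a (5p and 3p), miR-412 (5p and 3p), miR-369 (5p and 3p) and miR-410-3p. The sections hold 11 hairpins each and were set by count, not by any boundary in the genome.

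All 55 members matched a RefSeq mature sequence. The sequences below are those of the 14 members that passed the test against young AL in either old group, in cluster order, 5′ to 3′, with the seed in capitals.
miR-411-5p: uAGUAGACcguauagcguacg
miR-299a-5p: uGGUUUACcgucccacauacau
miR-329-3p: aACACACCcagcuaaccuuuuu
miR-494-3p: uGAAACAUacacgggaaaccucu
miR-1193-3p: uAGGUCACccguuuuacuaucc
miR-376c-3p: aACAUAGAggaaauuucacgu
miR-376b-5p: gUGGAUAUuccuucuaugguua
miR-376a-5p: gGUAGAUUcuccuucuaugag
miR-381-3p: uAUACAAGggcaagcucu
miR-539-5p: gGAGAAAUuauccuuggugugu
miR-409a-5p: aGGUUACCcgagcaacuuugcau
miR-369-5p: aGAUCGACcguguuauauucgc
miR-369-3p: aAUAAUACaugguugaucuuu
miR-410-3p: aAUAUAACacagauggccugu

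These 14 members had 14 different seeds. Over all 55 members there were 51 seeds, so that 4 seeds were each shared by 2 members, and the members of the cluster were mostly not a family by seed. The next sequences are the partners with which a called member shares its seed or most of its length, and the members that carried most counts.
miR-379-5p: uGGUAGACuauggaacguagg
miR-411-3p: uAUGUAACacgguccacuaa
miR-541-5p: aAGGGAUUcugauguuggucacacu
miR-300-3p: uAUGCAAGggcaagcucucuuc
miR-539-3p: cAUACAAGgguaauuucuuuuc
miR-376c-5p: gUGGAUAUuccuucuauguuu
miR-299b-5p: cGGUUUACcgucccacauac

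miR-381-3p shared its seed with miR-539-3p, although the rest of these sequences differed. Its reference sequence also differed from miR-300-3p by 1 base over 18 nt, in a base of the seed, so that reads could be split between them. miR-376b-5p and miR-376c-5p had the same seed and differed at 1 base over 21 nt, and the low total of miR-376c-5p (16 counts, against 652 for miR-376b-5p) depends on how the counting resolved that base. miR-299a-5p shared its seed with miR-299b-5p, which is read from the opposite strand of the same locus. miR-379-5p and miR-411-5p, the most counted members, had different seeds. Outside the cluster, counted miRNAs with the seed of a called member were miR-362-3p for miR-329-3p, miR-370-5p for miR-1193-3p and miR-344b-1-3p for miR-410-3p.

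For 5 of 7 pairs of entries on opposite strands, the counts do not separate the strands. miR-539-5p is the exact reverse complement, over 22 nt, of the entry miR-3576, which is shown here because both received nearly the same counts in every library.
miR-539-5p: gGAGAAAUuauccuuggugugu
miR-3576: aCACACCAaggauaauuucucc

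miR-539-5p had 435 counts and miR-3576 had 437, with a largest gap of 2 counts in any library. miR-369-5p and miR-3578 (1313 and 1306 counts), miR-382-3p and miR-3592 (1402 and 1391), miR-380-5p and miR-3579 (229 and 229) and miR-409a-3p and miR-409b (1972 and 1954) were paired in the same way. The exceptions were miR-299a-5p against miR-299b-3p (358 and 937 counts) and miR-299a-3p against miR-299b-5p (1055 and 564 counts), whose gaps reached 71 and 55 counts in a library. A value of any member of the other 5 pairs may therefore belong to either strand. In sequence, miR-299b-3p matched miR-299a-3p without a mismatch over 17 nt (937 and 1055 counts). miR-299b-5p differed from miR-299a-5p at 1 base over 20 nt (564 and 358 counts). The same reads could therefore be counted for both miR-299 hairpins, and their values may not be independent. miR-409b and miR-409a-3p are both members, so their calls and values are not independent. A predicted candidate miRNA with 2890 counts likewise followed miR-494-3p (2932 counts).

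The members made up a small part of the counts. Libraries held 34940346 to 83110905 counts, of which 60.7 to 86.8% belonged to 4 entries grouped here as the miR-1 family (miR-1-3p, miR-1b, miR-3571 and a predicted candidate whose counts follow miR-1b), and 2832 to 8804 counts per library belonged to the 55 members. This was 0.00820% of all counts. Entries with shared counts can hold the same reads, so both shares are of counts and not of reads. Counts were found in all 18 libraries for 44 members, while 11 members had fewer than 100 counts in all. Levels are given as counts per 1000000 (CPM) after TMM scaling, with factors between 0.639 in old AL replicate 11 and 2.14 in replicate 7 of that group. A list of striated muscle miRNAs served to check the tissue (miR-1, miR-133a, miR-133b, miR-133c, miR-206, miR-208a, miR-208b, miR-486 and miR-499). It leaves out miR-1b, miR-3571 and the predicted candidate, so its sum is not that of all muscle miRNAs. That list summed to 85490 to 207300 CPM, and none of its 13 tested entries was called in any comparison. Old AL replicate 8 stood apart, as the lowest of its group in 38 of the 44 members counted everywhere. The leukocyte miRNAs (8 of 8 entries counted, none at 0) summed to 608.6 CPM in that library and to 110.5 to 166.2 CPM in the other old AL libraries. Their part in the member values was not tested. The summed level, and the median and number of calls in the comparisons with old AL, are therefore also given without replicate 8. The columns of young AL replicates 1 and 2 are numbered apart from those of the other young libraries, for a reason the labels do not state, and the number of calls is also given without both.

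The summed level of the 55 members was lower in both old groups. In young AL the lowest library had 93.3 CPM, the median was 104.6 CPM and the highest had 132.1 CPM. Old AL libraries had 35.6, 83.2 and 89.1 CPM, in the same order, and old CR libraries had 52.2, 65.2 and 86.4 CPM. Thus all 12 old libraries lay below the 6 young ones, and the old groups overlapped each other. Without replicate 8, old AL spanned 72.3 to 89.1 CPM. When scaled by library totals alone, the separation from old AL was lost, because old AL replicate 7 then had 177.5 CPM, above every young AL library. Old CR spanned 34.4 to 98.2 CPM on that scale, with 1 library inside the young range. In whole muscle, fewer cells that express the cluster and less of its RNA in each cell cannot be told apart.

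**Figure D1:**
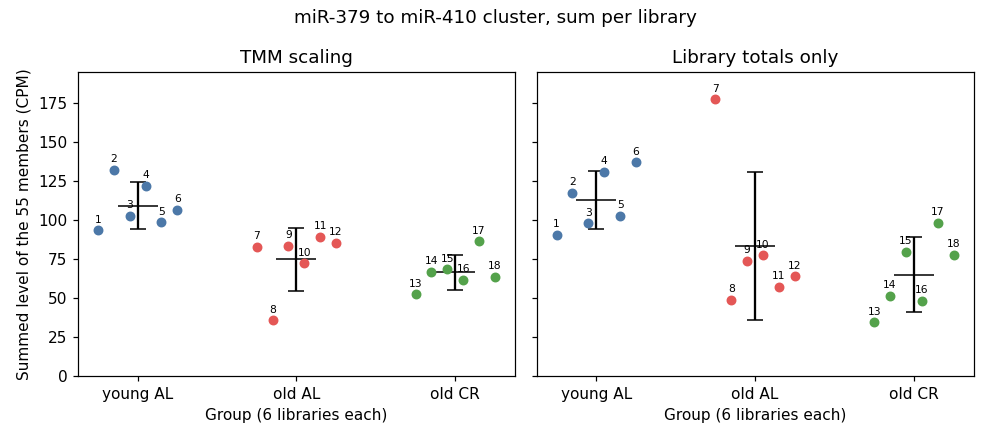
Summed level of the 55 members in each library (vertical axis, CPM) by group, after TMM scaling and by library totals only. Points are libraries with their replicate number, bars are mean ± SD of 6 libraries; after TMM scaling all old libraries lie below the lowest young one (93.3 CPM), while by library totals old AL replicate 7 is the highest of all (177.5 CPM).

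Member by member, the difference between old AL and young AL was downward almost throughout the cluster. Of 51 members tested, 49 had a lower fitted level in old AL and 2 a higher one, miR-154-3p and miR-485-3p, neither of them called. The median log2 fold change of the members was −0.57 (range −2.22 to 0.10), whereas that of all 732 entries tested was 0.06. Calls required a fold change of at least 1.5 together with an adjusted p no higher than 0.05 (edgeR quasi-likelihood test, Benjamini-Hochberg over all entries). On this rule 5 of the 51 members were called lower and 0 higher, where 2.32% of all entries were called lower and 0.956% higher. Their 6 old libraries lay entirely below the 6 young ones in 9 members, a pattern found in 2.73% of all entries. A further 13 members had an unadjusted p under 0.05, all lower in old AL. With the called members this made 18 of 51 lower and 0 higher. Of all 732 entries, 88 were lower and 83 higher at that p. Without replicate 8 the median was −0.40 and 4 members were called, and without young AL replicates 1 and 2 there were also 4. The number of calls depended on the fit: it was 0 with library totals in place of TMM, 11 with DESeq2, and 3 when old AL replicate 11 or young AL replicate 2, 3, 4 or 5 was left out.

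Old CR was compared with the same 6 young AL libraries, so that this comparison is not independent of the first. Here 46 of 53 members tested had a lower fitted level and 7 a higher one, with a median log2 fold change of −0.73 (range −1.81 to 1.61) against 0.08 over all 730 entries. In all, 12 members were called lower and 0 higher, while 5.21% of all entries were called lower and 4.11% higher. In 8 members the 6 old CR libraries were all under the lowest young one (3.01% of all entries). The 7 members with a higher fitted level were miR-323-5p, miR-758-3p, miR-376c-5p, miR-376b-3p, miR-323-3p, miR-485-3p and miR-380-3p. None of these 7 was called, and miR-323-5p and miR-376c-5p, the members with the fewest counts among them, had 16 counts each. Without young AL replicates 1 and 2 the number called was 8, and miR-369-3p (adjusted p = 0.241), miR-376c-3p (0.0636), miR-381-3p (0.0774) and miR-494-3p (0.132) were no longer among them.

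**Figure D2:**
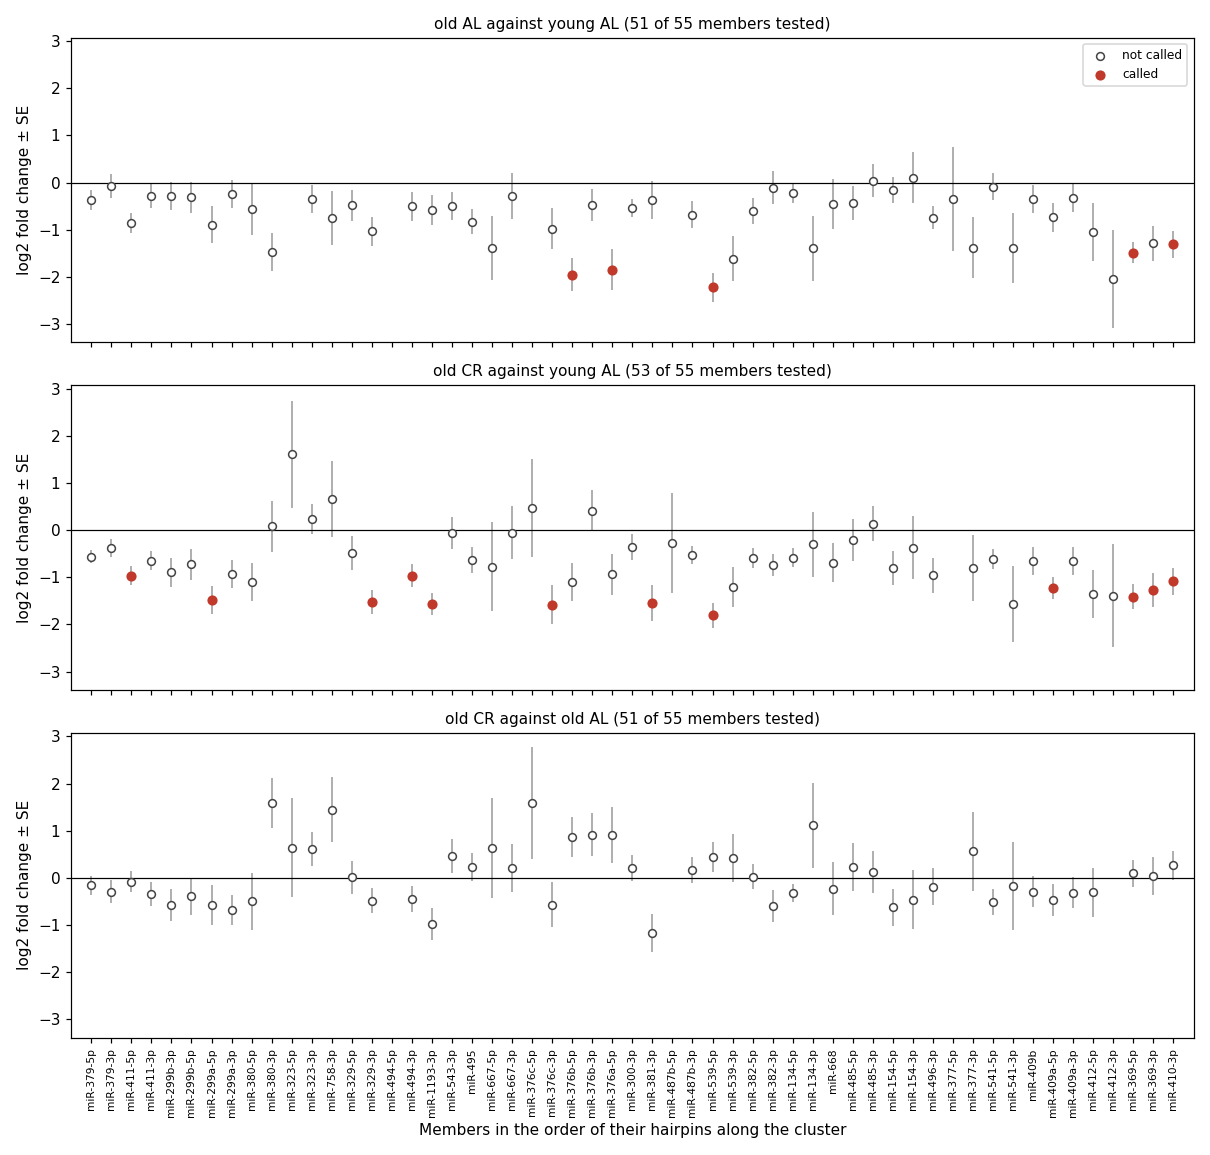
log2 fold change of each tested member (vertical axis, point ± SE) in the order of the hairpins (horizontal axis), for old AL against young AL, old CR against young AL and old CR against old AL; filled points are called. Points lie mostly below 0 over the whole length of the cluster in the upper panels, which share the young AL libraries, and on both sides of 0 in the lowest panel, where none is called.

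Lower fitted levels were found in all sections of the cluster. In old AL against young AL, the median log2 fold change was −0.50 in the first section, −0.76 in the middle and −0.59 in the last, with 0, 3 and 2 members called. In old CR against young AL the medians were −0.69, −0.61 and −0.81, with 5, 3 and 4 members called. They were also found among abundant and scarce members. Among the 21 members with at least 1000 counts, 21 were lower in old AL and 20 in old CR, and among the 23 members with at least 100 but fewer than 1000 counts, 22 and 19 were lower. Members with 10 to 99 counts had a median SE of 0.70 (old AL) and 0.95 (old CR) on the log2 scale, so that only changes far larger than those of the abundant members could have been seen, and none was called.

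In the first section, the abundant members miR-379-5p and miR-411-5p differed in how much they changed. miR-379-5p, which represses the endoplasmic reticulum protein EDEM3 in kidney cells, held 22146 counts and had a lowest, median and highest level of 18.5, 23.5 and 30.2 CPM in young AL, of 9.42, 19.7 and 24.4 CPM in old AL and of 14.3, 17.0 and 19.4 CPM in old CR. All groups overlapped, although 5 of 6 old CR libraries lay below every young library. Its log2 fold change was −0.37 (SE 0.22, adjusted p = 0.329) in old AL and −0.56 (SE 0.15, adjusted p = 0.0314) in old CR, the latter short of the fold change required. miR-411-5p, the neighbour of miR-379 (hairpin at chr6:134544594-134544669), had a lowest, median and highest level of 16.0, 21.1 and 28.2 CPM in young AL, of 6.32, 12.0 and 14.7 CPM in old AL and of 8.32, 11.2 and 14.2 CPM in old CR. No old library reached the lowest young one. miR-411-5p was downregulated in old CR (log2 fold change −0.96, SE 0.20, adjusted p = 0.0109) and gave −0.86 (SE 0.22, adjusted p = 0.0616) in old AL. The other arm, miR-411-3p, had a lowest, median and highest level of 2.61, 3.61 and 5.19 CPM in young AL, of 1.29, 3.16 and 3.95 CPM in old AL, while old CR lay between 1.49 and 2.79 CPM. The groups overlapped, and it was not called in old AL (−0.29, SE 0.26, adjusted p = 0.570) or old CR (−0.65, SE 0.20, adjusted p = 0.0645).

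Also in the first section, 4 less abundant members were downregulated in old CR. miR-299a-5p (hairpin at chr6:134545069-134545131) had a lowest, median and highest level of 0.297, 0.511 and 0.610 CPM in young AL, of 0.0837, 0.268 and 0.496 CPM in old AL and of 0.0877, 0.177 and 0.262 CPM in old CR. Young AL and old CR did not overlap. For this arm the log2 fold change was −1.48 (SE 0.30, adjusted p = 0.0103) in old CR and −0.89 (SE 0.39, adjusted p = 0.192) in old AL. miR-329-3p, a neuronal activity-regulated miRNA of dendrites (hairpin at chr6:134547913-134548009), had a lowest, median and highest level of 1.65, 2.75 and 3.82 CPM in young AL, of 0.645, 1.30 and 1.78 CPM in old AL and of 0.616, 1.01 and 1.18 CPM in old CR. All old CR libraries were below all young ones, and 4 of 6 old AL libraries were. The log2 fold change of miR-329-3p was −1.53 (SE 0.26, adjusted p = 0.00377) in old CR and −1.04 (SE 0.30, adjusted p = 0.0880) in old AL.

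miR-494-3p, known to repress the mitochondrial transcription factor TFAM in muscle cells (hairpin at chr6:134550115-134550197), had a lowest, median and highest level of 2.31, 3.54 and 5.22 CPM in young AL, of 1.03, 2.71 and 3.47 CPM in old AL and of 1.37, 1.71 and 2.52 CPM in old CR. Here 5 of 6 old CR libraries lay below the young range. The log2 fold change was −0.97 (SE 0.24, adjusted p = 0.0279) in old CR and −0.50 (SE 0.31, adjusted p = 0.340) in old AL, and the call in old CR was lost without young AL replicate 2 or old CR replicate 13, 16 or 18 (adjusted p 0.0533 to 0.0624) and with library totals (0.0539). miR-1193-3p (hairpin at chr6:134550443-134550562) had a lowest, median and highest level of 0.958, 1.17 and 1.501 CPM in young AL, of 0.251, 0.803 and 1.27 CPM in old AL and of 0.292, 0.351 and 0.584 CPM in old CR. All old CR libraries lay below the young range. In old CR its log2 fold change was −1.57 (SE 0.23, adjusted p = 0.00312), and in old AL it was −0.59 (SE 0.31, adjusted p = 0.273).

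The middle section held 3 of the 5 members called in old AL, miR-376b-5p, miR-376a-5p and miR-539-5p. miR-376b-5p (mature arms at chr6:134558876-134558933) had a lowest, median and highest level of 0.660, 0.998 and 1.58 CPM in young AL, of 0.144, 0.250 and 0.458 CPM in old AL and of 0.167, 0.563 and 0.737 CPM in old CR. Old AL lay wholly below young AL, whereas old CR overlapped both. miR-376b-5p was downregulated in old AL (−1.96, SE 0.34, adjusted p = 0.0117) and gave −1.10 (SE 0.40, adjusted p = 0.106) in old CR. miR-376a-5p (hairpin at chr6:134559371-134559452) had 1 to 18 counts per library and a lowest, median and highest level of 0.165, 0.232 and 0.266 CPM in young AL, of 0.0141, 0.0585 and 0.113 CPM in old AL and of 0.0462, 0.0832 and 0.281 CPM in old CR. The highest value of miR-376a-5p was in old CR replicate 17, above all young libraries, and the other 5 old CR libraries were below them. It was called in old AL (−1.85, SE 0.43, adjusted p = 0.0376) and not in old CR (−0.94, SE 0.44, adjusted p = 0.199). This old AL call was lost when any library other than old AL replicate 10 or 12 was left out (adjusted p 0.0528 to 0.0855) and under 6 other settings (adjusted p 0.0529 with shared entries in a single copy to 0.222 with library totals), and without old CR replicate 17 the old CR comparison passed (adjusted p = 0.0356).

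miR-376c-3p (hairpin at chr6:134558205-134558288) had a lowest, median and highest level of 0.325, 0.594 and 1.11 CPM in young AL, of 0.132, 0.308 and 0.633 CPM in old AL and of 0.0702, 0.205 and 0.353 CPM in old CR. Young AL overlapped both old groups, with 4 of 6 old CR libraries below it. Its log2 fold change was −1.58 (SE 0.41, adjusted p = 0.0298) in old CR and −0.98 (SE 0.43, adjusted p = 0.193) in old AL. The old CR call of miR-376c-3p was lost without young AL replicate 2, 3 or 4 or old CR replicate 13, 16 or 18 (adjusted p 0.0535 to 0.0670). miR-381-3p (hairpin at chr6:134562381-134562441) had 232 counts and had a lowest, median and highest level of 0.120, 0.276 and 0.434 CPM in young AL, of 0.0717, 0.218 and 0.363 CPM in old AL and of 0.0462, 0.106 and 0.130 CPM in old CR. Of the old CR libraries, 4 were below all young ones. miR-381-3p was called in old CR (−1.55, SE 0.38, adjusted p = 0.0267), a call lost without young AL replicate 2 or 4 or old CR replicate 15 (adjusted p 0.0533 to 0.0570), and gave −0.37 (SE 0.40, adjusted p = 0.663) in old AL.

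miR-300-3p, the more abundant near-copy of miR-381-3p with 3861 counts, had a lowest, median and highest level of 3.07, 4.10 and 5.67 CPM in young AL, of 1.89, 3.10 and 3.50 CPM in old AL and of 1.89, 3.11 and 6.00 CPM in old CR. Its groups overlapped, old CR replicate 17 being the highest library of all. It was called in neither old AL (−0.54, SE 0.19, adjusted p = 0.142) nor old CR (−0.36, SE 0.27, adjusted p = 0.471). miR-539-5p, which represses prohibitin 2 in cardiomyocytes (hairpin at chr6:134563598-134563673), had a lowest, median and highest level of 0.479, 0.797 and 1.14 CPM in young AL, of 0.0986, 0.174 and 0.257 CPM in old AL and of 0.148, 0.221 and 0.354 CPM in old CR. Every old library was below every young library. The log2 fold change of miR-539-5p was −2.22 (SE 0.30, adjusted p = 0.00341) in old AL and −1.81 (SE 0.27, adjusted p = 0.00312) in old CR, the lowest among the members in each comparison.

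In the last section, miR-541-5p stood out as an abundant member that hardly differed in old AL. It had a lowest, median and highest level of 6.24, 7.38 and 12.1 CPM in young AL, of 2.82, 8.16 and 10.0 CPM in old AL and of 3.67, 5.60 and 6.60 CPM in old CR. The old AL values spread around the young ones, except for replicate 8. The log2 fold change was −0.09 (SE 0.29, adjusted p = 0.915) in old AL and −0.62 (SE 0.21, adjusted p = 0.0878) in old CR. miR-409a-5p (hairpin at chr6:134579185-134579261) had a lowest, median and highest level of 1.70, 2.63 and 2.99 CPM in young AL, of 0.454, 1.60 and 2.01 CPM in old AL and of 0.620, 1.02 and 1.68 CPM in old CR. Old CR and young AL did not overlap. miR-409a-5p was downregulated in old CR (−1.23, SE 0.24, adjusted p = 0.00685) and gave −0.74 (SE 0.31, adjusted p = 0.187) in old AL.

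The end of the cluster, miR-369 and miR-410, was low in both old groups. miR-369-5p (hairpin at chr6:134579459-134579537) had a lowest, median and highest level of 1.64, 2.10 and 2.88 CPM in young AL, of 0.454, 0.760 and 1.002 CPM in old AL and of 0.443, 0.708 and 1.33 CPM in old CR. Neither old group overlapped young AL. miR-369-5p was called in old AL (−1.49, SE 0.22, adjusted p = 0.00341) and in old CR (−1.41, SE 0.27, adjusted p = 0.00685). The other arm, miR-369-3p, which binds the AU-rich element of the TNF mRNA, had a lowest, median and highest level of 0.886, 1.67 and 2.25 CPM in young AL, of 0.263, 0.572 and 1.11 CPM in old AL and of 0.347, 0.555 and 1.30 CPM in old CR. Young AL overlapped both old groups, through its lowest libraries. Its log2 fold change was −1.29 (SE 0.38, adjusted p = 0.0880) in old AL and −1.27 (SE 0.36, adjusted p = 0.0407) in old CR, the latter lost when any library other than young AL replicate 5 or 6 or old CR replicate 17 was left out (adjusted p 0.0690 to 0.0899). With all libraries kept, the old CR call was also lost with library totals (adjusted p = 0.0818), RLE factors (0.0534), totals without the miR-1 family (0.0597) and entries of shared counts kept in a single copy (0.0578).

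miR-410-3p, the last member of the cluster (hairpin at chr6:134579763-134579838), had a lowest, median and highest level of 0.887, 1.27 and 2.06 CPM in young AL, of 0.251, 0.512 and 0.770 CPM in old AL and of 0.371, 0.692 and 0.812 CPM in old CR. No old library reached the lowest young one. It was called in old AL (−1.31, SE 0.29, adjusted p = 0.0353) and in old CR (−1.09, SE 0.28, adjusted p = 0.0300). These calls were close to the threshold: in old AL the call was lost without old AL replicate 11 or 12 or when young AL replicate 2, 3, 4 or 5 was left out (adjusted p 0.0528 to 0.0820), and in old CR without young AL replicate 3, 4 or 5 or old CR replicate 14, 15 or 18 (adjusted p 0.0533 to 0.0628). The old AL call was also lost with library totals (adjusted p = 0.198), with entries of shared counts kept in a single copy (0.0515) and without old AL replicates 7 and 11 together (0.111).

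**Figure D3:**
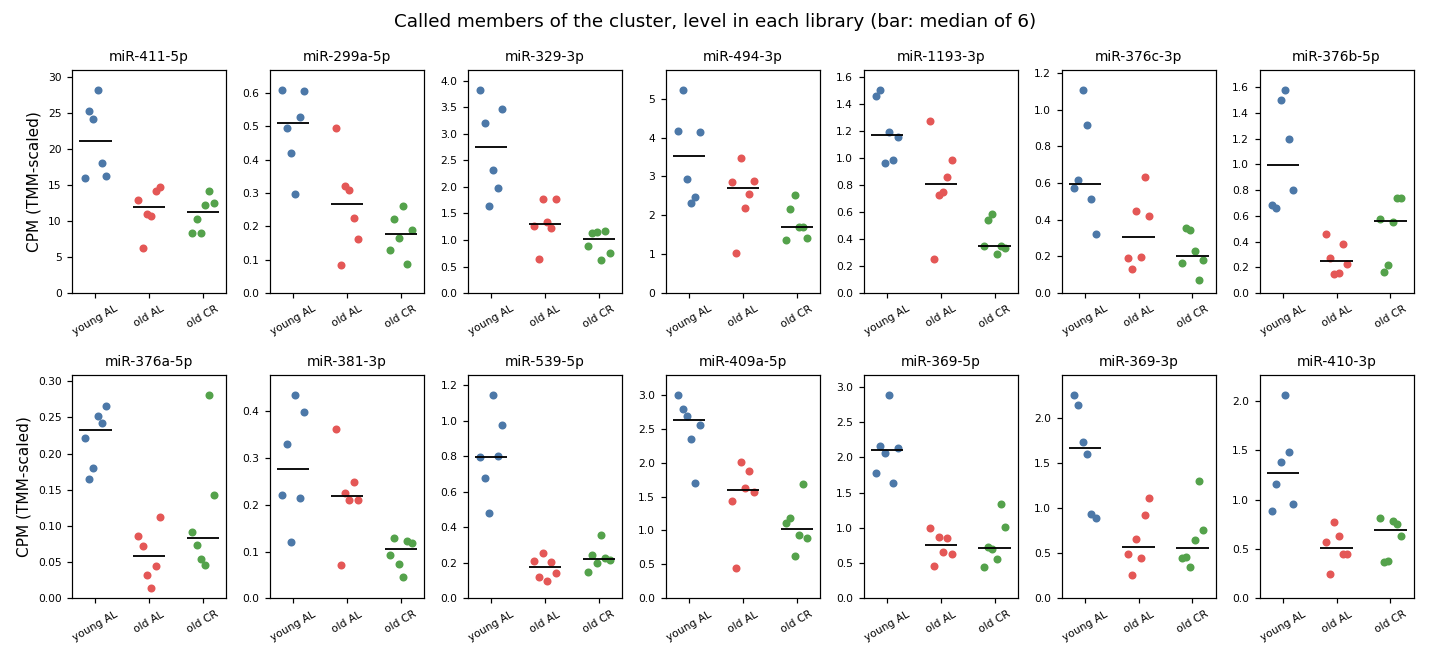
Level (vertical axis, TMM-scaled CPM, starting at 0) of the 14 members called in either old group, by group; points are libraries and bars the median of 6. For miR-539-5p every old library lies below the lowest young value of 0.479 CPM, whereas for miR-376a-5p old CR replicate 17 exceeds all young libraries.

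Lower levels recurred over the 44 members counted in every library. Taking each library's CPM relative to the mean of young AL, 229 of the 264 values of old AL and 234 of the 264 values of old CR were below that mean. In old AL replicate 8 this held for all 44 members. The values of a library share its scaling, so they are not independent observations, and no such share was taken over all entries. Old CR replicate 17 was the highest of its group in 25 of the 44 members, and old CR replicate 13 the lowest in 19.

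**Figure D4:**
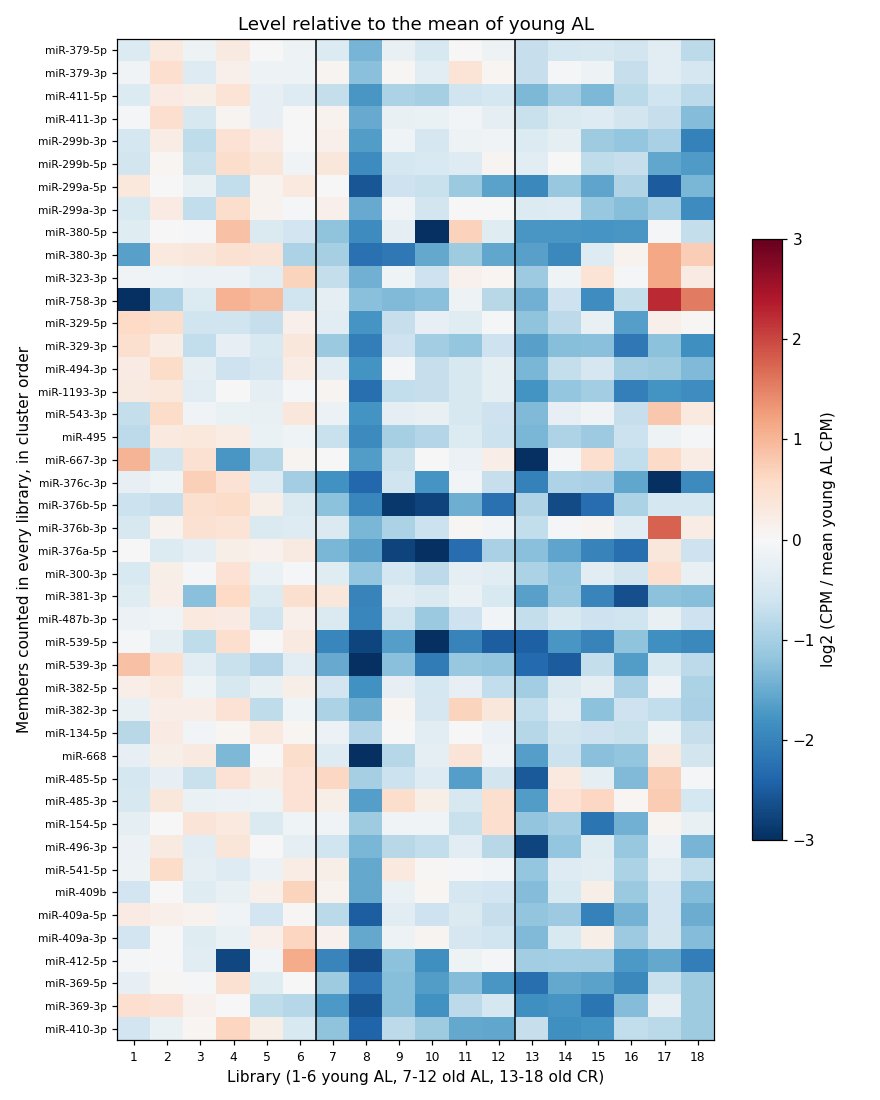
Level of the 44 members counted in every library (rows, in cluster order) in each of the 18 libraries (columns), as log2 of the CPM over the mean CPM of young AL; the colour scale ends at ±3. Blue (lower) prevails in libraries 7 to 18, with library 8 blue in all 44 rows. Library 17 lies above the young mean for miR-380-3p, miR-758-3p, miR-376b-3p and miR-376a-5p, and below it for miR-380-5p, miR-376b-5p and miR-376c-3p.

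Within the summed counts of the cluster, which needs no scaling between libraries, some members kept or raised their share while others lost it. miR-379-5p made up 19.8 to 25.2% of member counts in the young AL libraries with a median of 22.2%, 22.2 to 27.3% in those of old AL with a median of 25.6%, and 22.5 to 29.0% in those of old CR with a median of 25.8%. miR-369-5p made up 1.64 to 2.36% in young AL, 0.736 to 1.28% in old AL and 0.848 to 1.59% in old CR, without overlap between young and old. miR-539-5p made up 0.467 to 0.937% in young AL, 0.136 to 0.336% in old AL and 0.264 to 0.574% in old CR. Thus miR-369-5p had a lower share of the cluster in every old library, while the share of miR-539-5p overlapped between young AL and old CR. miR-379-3p was called in neither old group, and its share was 1.49 to 2.15% in young AL, 2.24 to 2.99% in old AL and 1.87 to 2.89% in old CR, with old AL above all young libraries. These shares depend on each other, since they add to a whole, and no test was made.

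Where both arms of a hairpin were tested, they mostly lay on the same side of 0. In old AL against young AL, both arms were lower in 16 of 18 hairpins, and in old CR against young AL in 15 of 20, with both higher in 1. The share of the 5p arm in the counts of a hairpin is also free of scaling. For miR-329 it was 31.3 to 41.6% in the young AL libraries with a median of 36.2%, 35.5 to 50.5% in those of old AL with a median of 48.3%, and 43.5 to 68.2% in those of old CR with a median of 49.6%, so that all old CR libraries were above the young ones. For miR-376b it was 80.0 to 91.3% in the young AL libraries with a median of 87.4%, 60.9 to 82.1% in those of old AL with a median of 67.6%, and 52.9 to 86.1% in those of old CR with a median of 69.4%, with overlap. For miR-369 it was 44.0 to 70.6% in the young AL libraries with a median of 58.9%, 36.1 to 67.3% in those of old AL with a median of 58.2%, and 46.2 to 66.7% in those of old CR with a median of 53.9%, with no separation of groups. The 5p share of miR-379 was 89.6 to 93.5% over all 18 libraries. These shares rest on at least 790 counts per young AL library for miR-379 but on as few as 14 counts in old AL for miR-376b, and no test of them was made.

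**Figure D5:**
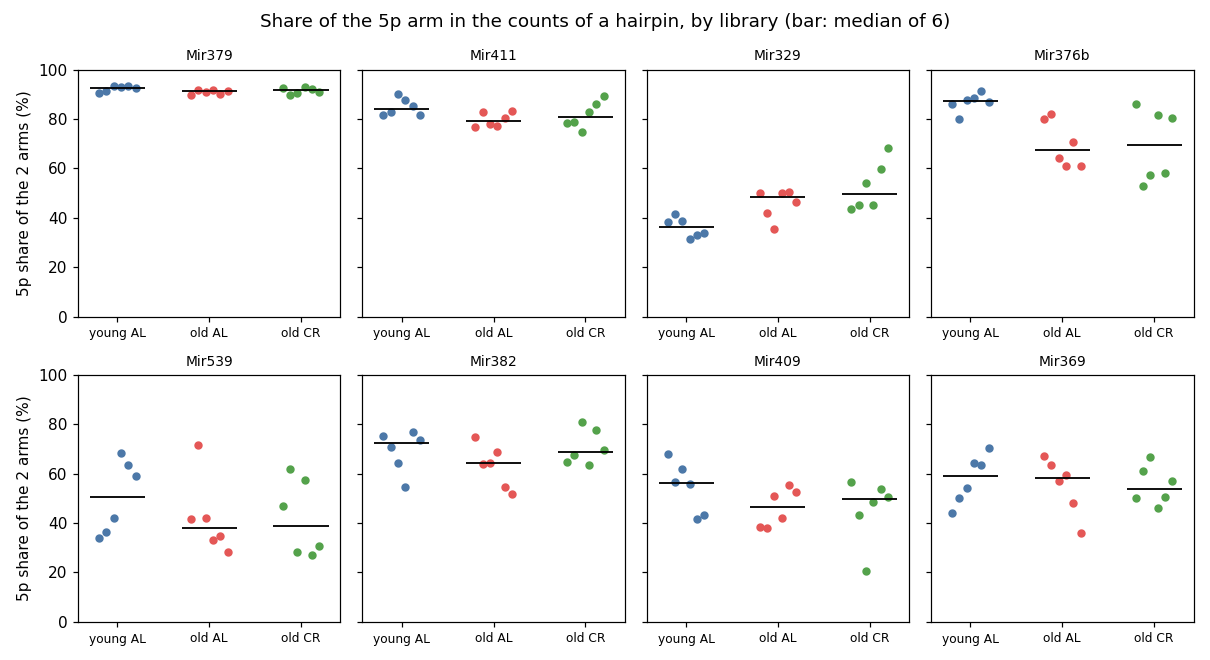
Share of the 5p arm in the counts of 8 hairpins (vertical axis, %) by group; points are libraries and bars the median of 6. The share is nearly constant for miR-379 (89.6 to 93.5%), and for miR-329 all old CR libraries (43.5 to 68.2%) lie above all young AL libraries (31.3 to 41.6%).

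The comparison of old CR with old AL asks whether restriction altered the cluster at 28 months. Of 51 members tested, 26 had a lower and 25 a higher fitted level in old CR, with a median log2 fold change of −0.08 against 0.01 over all 736 entries. The sign of this median was not stable: it was −0.21 without old AL replicate 8, −0.27 without old CR replicate 17 and −0.31 with filterByExpr, and above 0 without old AL replicate 11 (0.01), old AL replicate 12 (0.00364) or old AL replicates 7 and 11 together (0.06). By edgeR 0 members were called, 2 were lower and 1 was higher at an unadjusted p under 0.05, and the lowest adjusted p was 0.392; DESeq2 also called 0, as did edgeR without old AL replicate 8. Over all entries, 0% were called lower and 0.272% higher. At an unadjusted p under 0.05, 35 of all 736 entries were lower and 53 higher. The members thus held no larger share at that p than all entries did. For the 21 members with at least 1000 counts the median SE was 0.29 on the log2 scale, which sets the size of difference that could be seen. The medians of the sections were −0.32, 0.23 and −0.21.

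The 3 members with an unadjusted p under 0.05 were miR-1193-3p and miR-381-3p, lower in old CR, and miR-380-3p, higher in old CR. miR-1193-3p gave a log2 fold change of −0.97 (SE 0.34, adjusted p = 0.392) and miR-381-3p one of −1.17 (SE 0.40, adjusted p = 0.392), from the levels given above. miR-380-3p (hairpin at chr6:134546235-134546311) had a lowest, median and highest level of 0.0924, 0.352 and 0.389 CPM in young AL, of 0.0598, 0.0976 and 0.143 CPM in old AL and of 0.0742, 0.263 and 0.632 CPM in old CR. Of the old CR libraries, 4 were above all old AL libraries. Its log2 fold change was 1.59 (SE 0.52, adjusted p = 0.392) in old CR against old AL, −1.48 (SE 0.40, adjusted p = 0.0711) in old AL against young AL and 0.08 (SE 0.54, adjusted p = 0.963) in old CR against young AL. Of the miR-376 members, miR-376b-5p (0.87, SE 0.43, adjusted p = 0.419), miR-376b-3p (0.91, SE 0.46, adjusted p = 0.419), miR-376a-5p (0.91, SE 0.59, adjusted p = 0.552) and miR-376c-5p (1.59, SE 1.19, adjusted p = 0.621) had values on the same side as miR-380-3p, and miR-376c-3p (−0.57, SE 0.47, adjusted p = 0.672) on the other; none was called.

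Part of a list of nervous system miRNAs was higher in old CR than in young AL. The list held 23 entries, of which 19 had at least 10 counts and none was at 0. Of 18 entries tested, 7 were called higher in old CR against young AL and 0 in old AL against young AL. Over all entries, 4.11% were called higher in old CR against young AL and 0.956% in old AL against young AL. In old CR against old AL 16 of 18 had a higher fitted level, but 0 were called (lowest adjusted p 0.392). The list summed to 39.7 to 100.6 CPM in young AL, 57.2 to 115.5 in old AL and 77.0 to 394.1 in old CR. Its entries miR-9a-5p (34561 counts) and miR-9b-3p (33586 counts) had nearly equal totals and may hold the same reads. The sum and the number called may then include the same signal more than once. The highest sum was in old CR replicate 17, the library with the highest level of miR-758-3p (0.947 CPM), miR-323-3p (2.18 CPM) and miR-376b-3p (0.526 CPM) among all 18. It also had the lowest level of miR-376c-3p among all 18 (0.0702 CPM). Of the 44 members counted everywhere, it was the highest of its group in 25 and the lowest in 2. Without that library the median log2 fold change of the members in old CR against young AL was −0.80, with 15 members called. The part of these miRNAs in the member values was not tested. The liver miRNA miR-122 (2 entries, none at 0) summed to 0.570 to 38.7 CPM in young AL, 49.2 to 776.7 in old AL and 102.2 to 186.9 in old CR. Both entries were called higher in old CR against young AL, and neither in the other comparisons. Against young AL, their median log2 fold change was 4.31 in old AL (lowest adjusted p 0.0697) and 3.50 in old CR (lowest adjusted p 0.0296). Of the erythroid, leukocyte, endothelial and smooth muscle, and fibroblast lists, no entry was called in any of the 3 comparisons.

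The remaining miRNAs of the Dlk1-Dio3 domain, which lie outside the miR-379 to miR-410 run (miR-127, miR-136, miR-337, miR-341, miR-370, miR-431 to miR-434, miR-493, miR-540, miR-665, miR-673 and miR-770), gave 23 entries. In old AL against young AL 20 of 22 tested were lower, with a median log2 fold change of −0.67. Of these, 3 were called, where 2.32% of all entries were called lower. In old CR against young AL 21 of 23 were lower, with a median of −0.88. Of these, 6 were called, where 5.21% of all entries were called lower. In old CR against old AL none was called, and the median was −0.13. The members of the miR-379 to miR-410 run, at −0.57, −0.73 and −0.08, thus had medians near those of the other domain miRNAs, and a difference between them was not tested.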

How the data were processed

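Small RNA of rat gastrocnemius was sequenced by the authors (6 libraries per group). They trimmed adapters with Cutadapt, discarded short reads, identified miRNAs with miRDeep2 and deposited raw counts for 763 known and 146 predicted entries. Per the labels, processing notes list Rnor_6.0, Bowtie2 2.4.0 and cutadapt 1.2.1; the sources used here give neither the miRBase release nor the strand setting. Sequences and coordinates are from RefSeq GRCr8.

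Each pair of groups (12 libraries) was fitted with edgeR 4.0.16 (R 4.3.3; TMM, robust quasi-likelihood, two-sided) on entries with at least 10 counts in those libraries, with Benjamini-Hochberg adjustment over all entries. SE is the log2 fold change divided by the square root of F. CPM used TMM factors over 18 libraries. Scripts were tested on simulated data. DESeq2 1.42.0 and other scalings and filters were alternatives.

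Values are given for members called by edgeR, the 5 with the highest mean CPM, and the lowest p in each direction in old CR against old AL; any other member given a value was picked after its values had been seen. The members and lists were chosen with earlier results of these data known. No library was a duplicate of another in its group (45 pairs, chi-square per degree of freedom at least 982.5). Pairs from different groups were not compared in this way. Reads lack molecular identifiers, so counts are not independent molecules. The fold changes printed in the paper were not compared with the values given here.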

Additional observations from a re-analysis of the deposited data

Results flagged for a closer look

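Among 60 groups of 6 libraries examined for a library far from the rest, 4 were flagged, all by old AL replicate 8 as the lowest; chance flags about 1 in 20 groups. Its summed member level was 35.56 CPM, with 72.28 CPM in the next library. miR-541-5p was 2.82 CPM there (next 7.75 CPM), miR-409a-5p 0.454 CPM (next 1.44 CPM) and miR-411-3p 1.29 CPM (next 2.98 CPM). The gap to the next library was 0.635 to 0.686 of the group's range in these cases, above Dixon's 95% critical value for 6 samples.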

How the results depend on the processing

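The median log2 fold change of the members moved by less than the spread between libraries (SD 0.341) under every alternative in all 3 comparisons, but in old CR against old AL it changed sign, from −0.08 as reported, across a range of −0.31 to 0.06. The number called in old AL against young AL, 5 as reported, was 0 with library totals, 11 with DESeq2, 10 with filterByExpr, 10 with known miRNAs only, 3 with entries of shared counts kept only in a single copy, and 3 without old AL replicates 7 and 11 together, an alternative chosen after seeing the data. Leaving out 1 library gave 3 to 5 calls, with 3 without old AL replicate 11 and likewise without replicate 2, 3, 4 or 5 of young AL. In old CR against young AL (12 calls) leaving out 1 library gave 8 to 15, with 8 without young AL replicate 2 or old CR replicate 18. There were also 8 without young AL replicates 1 and 2 together, and other settings gave 11 to 17. In old CR against old AL there were 0 under each. The cause of these differences was not tested. Over the named members, 1398 alternative values stayed on their side of the threshold, of which 24, in 7 comparisons of a member that was not called, changed sign; 65 fell short of it, 33 newly passed it and 0 reversed a call. In old AL, miR-539-5p, miR-369-5p and miR-376b-5p were called whichever library was left out and lost only with library totals (adjusted p 0.108, 0.171 and 0.197). Library totals moved the median of all entries from 0.06 to 0.23 in old AL against young AL and from 0.01 to −0.27 in old CR against old AL; relative to it the members were at −0.73 and −0.01, as against −0.63 and −0.09 with TMM. No paired analysis was possible because the groups share no replicate numbers. Counts of under 100 in all limit 11 members, and a count of 0 allows up to 3 counts.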
